A study of Mus musculus with 2 samples.

Results

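The 10 genes described here encode proteins of neutrophil granules, and they were followed in innate lymphoid cell (ILC) progenitors of wild-type mice and of mice with a Yeats4 deletion. Of them, 4 encode proteins of the primary (azurophil) granules, namely Mpo, Elane, Prtn3 and Ctsg, and 6 encode proteins of granules made later, namely Ltf, Camp, Ngp, Lcn2, Mmp8 and Mmp9. They are 10 of the 19505 named genes on the arrays, all 10 lay among the 10881 genes past a filter on low values, and each had 1 probe set. The members were chosen by symbol, but the contrast between the classes was selected on measured differences of these same arrays. Differences of the members are therefore a description, with no test.

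The study hybridised RNA of 2 sorted populations to Affymetrix arrays, 1 per genotype. The wild-type array held RNA of progenitors from animals with the genotype Wild-type, and the other held RNA of progenitors with the genotype Yeats4 knockout. The design text calls the wild-type animals littermates. The cells were sorted as negative for lineage markers, positive for CD127 and α4β7 integrin, and intermediate for c-Kit and Sca-1. The sources used here give neither age, nor the line or cells in which Yeats4 is deleted, nor how many mice stand behind each array. Yeats4 encodes a reader of acylated histones that belongs to chromatin-modifying complexes. Its probe set read 5.96 and 5.90 (log2) in wild type and on the array labelled knockout. Where its probes lie relative to the deletion is not known, and the label was not checked by it. Lmo4, which encodes a LIM-domain transcriptional cofactor, read 11.47 and 9.01. Each genotype has a single array, so replicate error cannot be stated, no p-value is given, and every value below compares these arrays only.

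Neutrophil granules form in waves as the cell matures, and each wave holds the proteins that are made while it buds. Primary granules arise in promyelocytes and carry myeloperoxidase and a group of serine proteases. Specific granules arise in myelocytes and carry lactoferrin, cathelicidin and lipocalin, and gelatinase granules follow in later cells. The messenger RNAs of the primary proteins are therefore known as marks of early granulocyte precursors and those of the later proteins as marks of maturing ones. ILC progenitors are lymphoid and are not known for making either set, and the arrays measured each sorted population as a whole.

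The 4 primary granule genes read higher and the 6 later granule genes lower on the array labelled knockout than on the wild-type array. The difference (array labelled knockout minus wild type, log2) had a median of 0.45 over the primary genes, with a range of 0.25 to 0.72, and a median of -0.36 over the later genes, with a range of -0.55 to -0.16. The ranges did not overlap, and the medians lay 0.80 apart, which is a 1.75-fold shift of primary against later genes. Over all genes past the filter the median difference was 0.08, and 58.2% of genes were above 0 and 41.0% below 0. On a 1.5-fold threshold, 1 of the 4 primary genes (Ctsg) was higher, against 9.16% of all genes, and none of the 6 later genes was lower, against 5.16%. The latter count depended on scaling: with each array centred on its median over the genes past the filter, Ltf (-0.63) and Mmp9 (-0.59) passed 1.5-fold, as did 7.54% of all genes downwards and 6.24% upwards. Centring thus moved the upward share of all 1.5-fold differences from 64.0% to 45.3%. None of the 10 differed 2-fold, which 1.56% of all genes did upwards and 0.781% downwards. The shares of all genes take in many dim genes, and at the members' levels they were mostly smaller. As deposited, 2.54% of genes with a mean of 9 to 10 were 1.5-fold higher, and 0% of those at 10 or more. Of genes with a mean of 5 to 6, 2.54% were 1.5-fold lower, and in brighter bins 0.85% to 1.49% were. In these bulk samples, fewer cells of a type and less RNA per cell cannot be told apart.

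**Figure D1:**
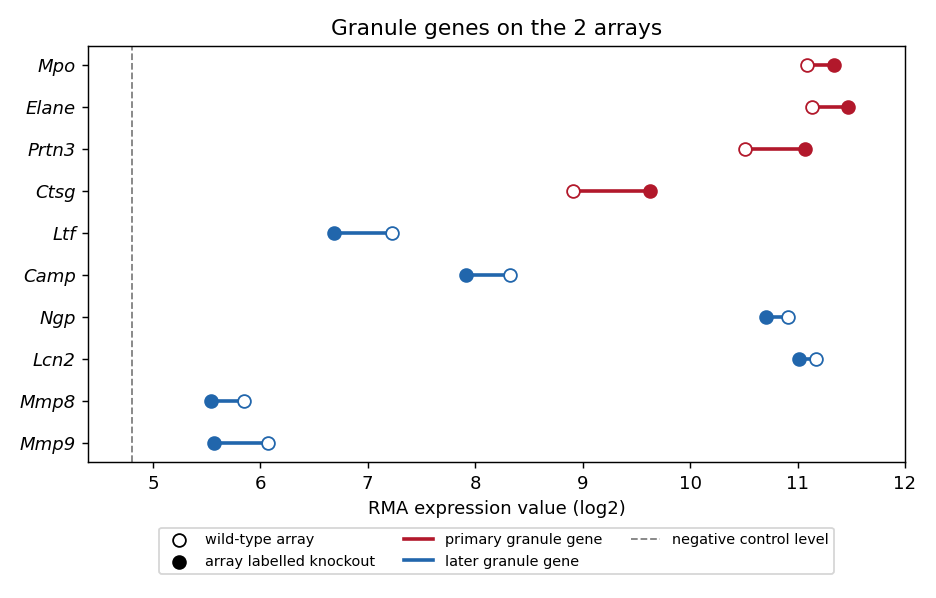
RMA expression values (log2, x axis) of the 10 granule genes on the wild-type array (open circles) and the array labelled knockout (filled circles), with the negative control level as a dashed line. The 4 primary genes (red) moved right and the 6 later genes (blue) moved left, and all 10 lie above the dashed line on both arrays.

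All 10 genes read above the level of the negative control probe sets. That level was the 95th percentile of 5222 such controls on each array. The higher of the 2 arrays, the wild-type one (4.80), is used as the control level below, and a gene under it on both arrays is called near background. The median of the genes past the filter was 4.85 in wild type and 4.94 on the array labelled knockout. Shares of all genes thus rest in large part on genes near or under the control level. The member closest to it was Mmp8, which on the array labelled knockout still lay 0.73 above it (log2).

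Because bright genes vary less between arrays than dim ones, each difference was set beside the 500 genes nearest in mean level, by their median and their spread (scaled median absolute deviation). For Mpo, Elane, Prtn3, Ngp and Lcn2 these 500 genes reached from a mean of 7.93 to 11.45. Most of them were dimmer than these members, and dimmer genes spread more. Most bright genes leaned upwards. Of the 83 genes with a mean of 10 or more, 75.9% were above 0, and of the 118 between 9 and 10, 80.5% were. A difference above 0 is thus the common case at the level of the primary genes, and the size of the difference says more than its sign. The later genes, by contrast, lay below 0 where most genes of like level lay above it.

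Among the primary genes, Ctsg (Entrez gene 13035), which encodes the chymotrypsin-like protease cathepsin G, differed most. It read 8.91 in wild type and 9.63 on the array labelled knockout, a 1.65-fold higher level (0.72, local spread 0.17). Of the 500 genes nearest in level, 3 were as high.

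Prtn3 (Entrez gene 19152), which encodes the elastase-like protease proteinase 3, read 10.52 and 11.07 in the same order and was 1.47-fold higher (0.55, local spread 0.17). It was among the brightest genes of the table, and 16 of its 500 nearest genes were as high. Of the other 82 genes with a mean of 10 or more, none was.

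Elane (Entrez gene 50701) encodes neutrophil elastase, whose gene stands next to Prtn3. It read 11.14 in wild type and 11.47 on the array labelled knockout (0.34, 1.26-fold), and 72 of its 500 nearest genes were as high. Only 4 of the other 82 genes at a mean of 10 or more were.

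Mpo (Entrez gene 17523) encodes myeloperoxidase, the heme enzyme that makes hypochlorous acid, and differed least in the class. It read 11.09 and 11.34 (0.25, 1.19-fold), within 1 local spread (0.17) of the median of its 500 nearest genes (0.13). Among its 500 nearest genes 119 were as high, and among the other 82 at a mean of 10 or more 6 were. Mpo was thus the single primary gene within 1 local spread of the median of its 500 nearest genes, most of which were dimmer. Against the smaller spread among the genes at 10 or more (0.10) it lay 1.67 spreads above their median.

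The order within the class ran from Ctsg through Prtn3 and Elane to Mpo, a range of 0.47. The steps from Ctsg to Prtn3 and from Elane to Mpo were smaller than the local spread, so these neighbours in the order are not separated. The highest value in the table was 11.89 in wild type and 11.80 on the other array, and 8 genes, Elane included, had a mean as high as that of Elane. Elane and Mpo therefore lay near the upper end of the scale on both arrays. The part of this in their small differences was not tested.

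**Figure D2:**
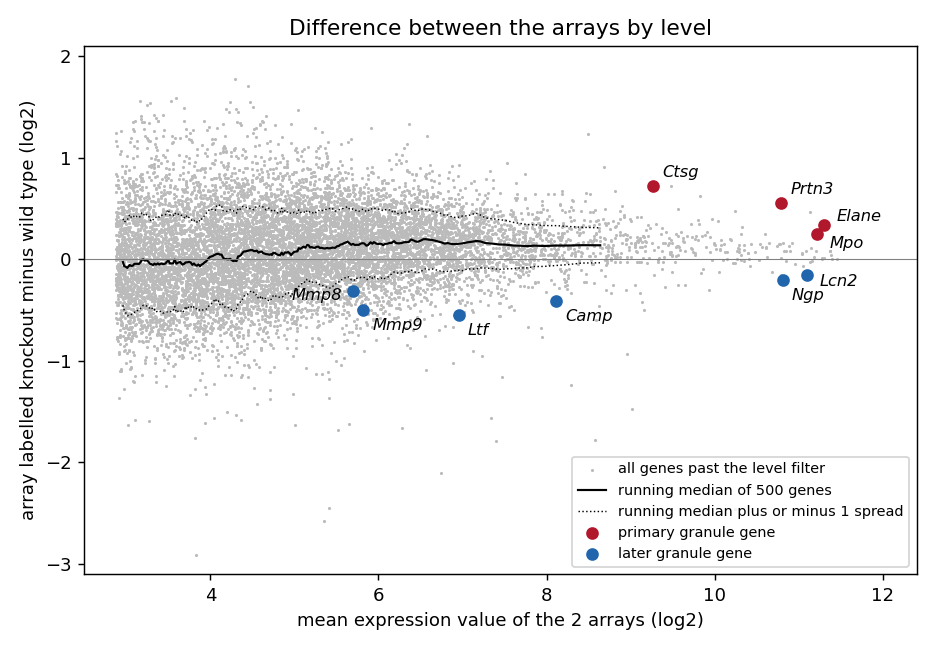
Difference between the arrays (log2, y axis) against the mean of the 2 arrays (log2, x axis) for the 10881 genes past the filter (grey). Primary granule genes are red and later ones blue. The black line is the running median of 500 genes with 1 spread on either side (dotted), which ends where fewer than 250 brighter genes are left. The 6 later genes lie under the lower dotted line or its level, and Ctsg and Prtn3 lie at the upper edge of the bright genes.

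The stretch just before each gene's start is shown for the primary genes because they differed in 1 direction. The RefSeq table (GRCm38.p6) held 9 of the 10 members, all but Mmp9, and the 250 bases before the start were searched on both strands for the letters GAGGAA, the core bound by PU.1, and TTNNGNAA, a form of the C/EBP site. PU.1 and C/EBP proteins are the factors known to drive granule genes. All 4 primary stretches held GAGGAA, against 23.3% of the 32851 stretches in the table, and none held TTNNGNAA, against 36.8%. In Prtn3 the match lay 95 to 90 bases before the start and in Elane 85 to 80, and in both it reads on into gt. Mpo held 2 matches and Ctsg 1, all more than 200 bases before the start. The Mpo match 224 to 219 bases before the start also reads on into gt. A match is a run of letters and not a measured site. Capitals mark GAGGAA or its reverse complement TTCCTC, and TTNNGNAA or its reverse complement. The sequences run 5′ to 3′ along the gene.
Prtn3, chr10:79879417-79879666, plus strand: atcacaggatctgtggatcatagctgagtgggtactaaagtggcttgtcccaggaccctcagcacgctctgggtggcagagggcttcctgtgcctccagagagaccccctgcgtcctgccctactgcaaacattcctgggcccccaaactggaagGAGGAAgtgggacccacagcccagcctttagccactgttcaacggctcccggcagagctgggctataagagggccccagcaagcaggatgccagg
Elane, chr10:79886062-79886311, plus strand: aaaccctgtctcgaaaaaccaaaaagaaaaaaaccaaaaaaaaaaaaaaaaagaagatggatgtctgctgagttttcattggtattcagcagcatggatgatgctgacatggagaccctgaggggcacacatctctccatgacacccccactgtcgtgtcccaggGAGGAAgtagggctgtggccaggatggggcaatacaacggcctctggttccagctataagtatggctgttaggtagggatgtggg
Mpo, chr11:87793534-87793783, plus strand: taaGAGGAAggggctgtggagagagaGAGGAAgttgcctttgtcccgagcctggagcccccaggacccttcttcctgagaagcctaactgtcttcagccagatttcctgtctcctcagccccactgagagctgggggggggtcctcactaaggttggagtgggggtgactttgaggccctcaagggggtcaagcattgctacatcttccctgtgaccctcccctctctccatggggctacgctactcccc
Ctsg, chr14:56102575-56102824, minus strand: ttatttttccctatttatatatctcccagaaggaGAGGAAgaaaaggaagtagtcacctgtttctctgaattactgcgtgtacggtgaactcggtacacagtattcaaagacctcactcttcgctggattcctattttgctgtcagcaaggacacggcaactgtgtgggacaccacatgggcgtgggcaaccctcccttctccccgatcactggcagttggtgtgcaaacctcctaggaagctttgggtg

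The later genes were lower on the array labelled knockout, in the order Ltf, Mmp9, Camp, Mmp8, Ngp and Lcn2. Ltf (Entrez gene 17002) encodes lactoferrin, the iron-binding protein of specific granules, and differed most. It read 7.23 in wild type and 6.68 on the array labelled knockout, 1.46-fold lower (-0.55, local spread 0.26), and 5 of its 500 nearest genes were as low.

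Camp (Entrez gene 12796), which encodes the antimicrobial cathelicidin peptide precursor, read 8.32 and 7.91 in the same order (-0.41, 1.33-fold lower, local spread 0.20). Of its 500 nearest genes 10 were as low.

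Ngp (Entrez gene 18054) encodes neutrophilic granule protein, a relative of the cathelicidins, and read 10.91 and 10.70 (-0.21). Lcn2 (Entrez gene 16819) encodes lipocalin 2, which binds bacterial siderophores, and read 11.17 and 11.01 (-0.16). Both are small shifts in very bright genes. Of the 500 nearest genes 35 were as low as Ngp and 41 as low as Lcn2, and of the other 82 genes at a mean of 10 or more 1 and 2 were.

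The metalloproteinases were the dimmest members. Mmp9 (Entrez gene 17395), which encodes gelatinase B of the gelatinase granules, read 6.07 in wild type and 5.57 on the array labelled knockout (-0.50, 1.42-fold lower), and 16 of its 500 nearest genes were as low. Mmp8 (Entrez gene 17394), which encodes neutrophil collagenase, read 5.85 and 5.54 (-0.31). At that level the spread was wide (0.35), and 52 of the nearest 500 were as low as Mmp8.

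All 6 later genes lay more than 1 local spread below the median of the genes nearest in level, and 3 of the 4 primary genes lay more than 1 above it. The share of all genes that far out was not counted, and such a distance is not rare. Among the members beyond 1 spread, Elane had 72 of its 500 nearest genes as high and Mmp8 52 as low. The order among the later genes had a range of 0.39, and no step between neighbours in it was larger than the local spread. Summed on the linear scale, the 4 primary probe sets gave 6371 in wild type and 8373 on the array labelled knockout, and the 6 later ones gave 4825 and 4173. These sums are led by the brightest probe sets and are a description of the arrays, not of molecule numbers.

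Of the 5 later genes with a stretch in the table, 4 held TTNNGNAA, all but Camp, and 3 held GAGGAA or its reverse complement, namely Ltf, Lcn2 and Mmp8. The C/EBP count rests on how the C/EBP letters are written: with TNNNGNAA all 9 stretches held a match, against 78.4% of all stretches. The letters CNGTT, the core bound by MYB, stood in all 9 (74.2% of all stretches), and TGTGGT, the core bound by RUNX factors, in Ctsg (14.0%). Ltf and Ngp are shown for their TTNNGNAA matches and Camp as the stretch with neither marked motif.
Ltf, chr9:111019042-111019291, plus strand: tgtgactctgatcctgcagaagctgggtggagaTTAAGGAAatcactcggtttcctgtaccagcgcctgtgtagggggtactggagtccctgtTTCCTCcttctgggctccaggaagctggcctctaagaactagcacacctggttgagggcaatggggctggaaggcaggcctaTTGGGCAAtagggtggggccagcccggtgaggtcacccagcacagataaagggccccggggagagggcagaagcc
Ngp, chr9:110419558-110419807, plus strand: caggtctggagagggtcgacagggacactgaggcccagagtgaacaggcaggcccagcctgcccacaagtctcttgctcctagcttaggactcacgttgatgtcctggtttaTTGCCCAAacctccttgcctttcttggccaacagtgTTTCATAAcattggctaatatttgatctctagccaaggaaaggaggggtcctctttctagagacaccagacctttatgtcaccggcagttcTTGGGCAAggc
Camp, chr9:109849457-109849706, minus strand: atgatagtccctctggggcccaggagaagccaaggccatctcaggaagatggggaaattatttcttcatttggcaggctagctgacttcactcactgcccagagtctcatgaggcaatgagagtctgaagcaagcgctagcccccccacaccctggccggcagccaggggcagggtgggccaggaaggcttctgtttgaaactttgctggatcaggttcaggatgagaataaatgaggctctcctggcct

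The members lie on few chromosomes. Prtn3 and Elane are neighbours on chromosome 10 and Ltf, Camp, Ngp and Mmp8 lie on chromosome 9, while Lcn2 and Mmp9 lie on chromosome 2 (gene order from RefSeq, GRCm38.p6). The protein-coding genes next to the members, up to 4 on each side, were read for comparison. Of the 24 that were no members and read above the control level on both arrays, 1 differed 1.5-fold, and their median difference was -0.0033. That gene was Epx, which encodes eosinophil peroxidase and lies close to its relative Mpo. Epx was 2.96-fold lower there (8.13 and 6.56), whereas Mpo was 1.19-fold higher. Next to Ctsg lies Mcpt8, a basophil protease gene, which was at -0.17. Plppr3, beside Prtn3, was at 0.37.

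Other genes of the granule pathways were read from lists by role. Counts in these lists and in the marker lists below stand beside the shares of all genes past the filter. As deposited, 58.2% of all genes were above 0 and 41.0% below. A 1.5-fold difference was reached by 9.16% upwards and 5.16% downwards, and a 2-fold one by 1.56% and 0.781%. Among other primary granule genes, 7 of the 9 past the filter were above 0 (6 after the correction for level by loess), with a median of 0.41. Prss57, which encodes neutrophil serine protease 4, was 1.89-fold higher (6.41 and 7.33, local spread 0.27) and Gusb, the lysosomal β-glucuronidase, 1.81-fold higher (5.21 and 6.06). Cd63, a tetraspanin of the primary granule membrane, was at 0.45 and Manba, near background, at 0.59. Against that direction Lyz2, the lysozyme found in both granule types, was at -0.26.

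Genes that process, pack or inhibit the serine proteases had a median of 0.30 over the 6 past the filter (0.17 after the correction for level), and 5 of them were above 0. Serpinb1a, an inhibitor of elastase, proteinase 3 and cathepsin G, was 1.59-fold higher (8.47 and 9.14, local spread 0.18). Srgn, the serglycin core protein on which the proteases are packed, was at 0.46, and Ctsc, the peptidase that activates them, at 0.40. Cstb was at 0.20. Stfa3 was at -0.82, but it was below the filter and near background.

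Genes of promyelocytes and granulocyte-monocyte progenitors were above 0 in all 12 cases as deposited, in 11 after centring and in 10 after the correction for level. Their median was 0.25, or 0.17 after that correction. Their median level was 8.09 in wild type and 8.38 on the array labelled knockout. Of all genes with a mean of 8 to 9, 77.6% were above 0 as deposited, so that sign is the common case there. Ms4a3, a tetraspan gene of such progenitors, was 1.88-fold higher (8.23 and 9.13, local spread 0.18). Cst7, which encodes cystatin F, was at 0.75, Igsf6 at 0.64 and Nkg7, which lymphoid killer cells also express, at 0.53. Of the 12 genes 3 passed 1.5-fold upwards, against 9.16% of all genes and 3.36% of those with a mean of 8 to 9.

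Other genes of the later granules were more divided than the 6 members. Among other specific granule genes 11 of the 17 past the filter were below 0 and 6 above, with a median of -0.08. After the correction for level 13 were below 0 and the median was -0.16. Chil1 (5.69 and 4.90) and Chil3 (8.27 and 7.59), which encode chitinase-like proteins, were at -0.78 and -0.67. Anxa3, an annexin of these granules, was 2.05-fold higher (5.69 and 6.73), and Hp, haptoglobin, was at 0.48. Among other gelatinase granule genes 4 of 5 were above 0 (median 0.22), or 3 after the correction for level (median 0.13), led by the ficolin gene Fcnb (0.66, 5.03 and 5.69), with Hvcn1 at 0.24, Mmp25, near background, at 0.22 and Vamp2 at -0.22.

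Genes of late neutrophils were divided too, with 9 of 19 above 0, 10 below and a median of -0.02, which became 7, 12 and -0.14 after the correction for level. Retnlg, a resistin-like gene of mature neutrophils, was 2.35-fold lower (8.91 and 7.68, local spread 0.20) and the chemokine gene Ccl6 1.71-fold lower (6.50 and 5.73). Il1b was at -1.09 but near background on both arrays. Trem3 (0.71) and Mrgpra2a (0.68) were more than 1.5-fold higher. The calcium-binding protein genes S100a8 (10.36 and 10.34) and S100a9 (10.08 and 9.78), abundant in the neutrophil cytosol, were at -0.02 and -0.30.

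**Figure D3:**
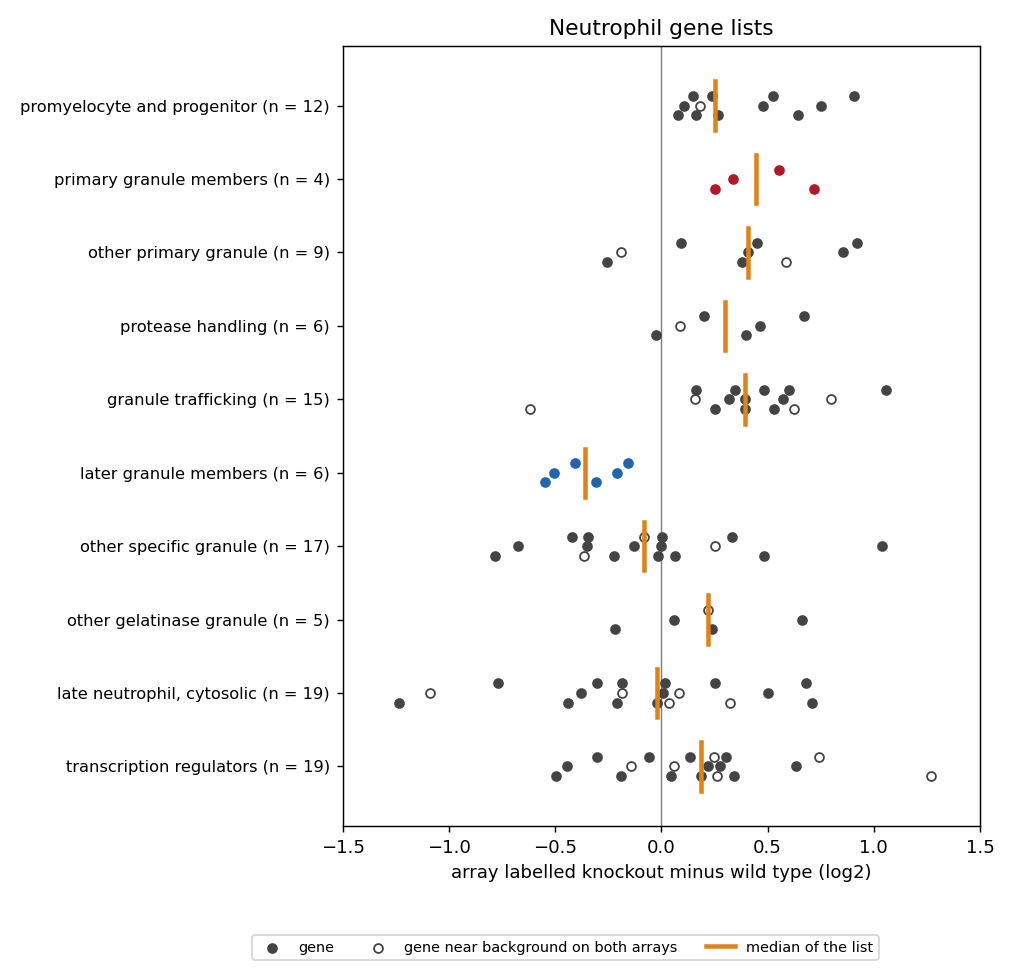
Difference between the arrays (log2, x axis) for each gene past the filter in 10 neutrophil gene lists, with the median of each list as an orange bar. Open circles are genes near background on both arrays. The lists of primary granule and promyelocyte genes lie mostly to the right of 0, the 6 later members lie to the left of it, and the other later lists spread to both sides.

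Genes of granule trafficking and of inherited neutropenia had a median of 0.39 (0.24 after the correction for level). Of the 15 past the filter 14 were above 0, against 58.2% of all genes. The endoplasmic reticulum gene Jagn1 was under the control level in wild type and at least 1.68-fold higher on the other array. Hps1 was likewise at least 1.11-fold higher. Rab38 (0.80), Vamp7 (0.62) and Hps4 (-0.62) were near background. All 8 that read above the control level on both arrays were above 0, among them Snap23 (0.53) and Stxbp2 (0.48), which serve granule fusion. Of all genes, 63.0% with a mean of 5 to 6 and 69.4% with a mean of 6 to 7 were above 0.

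The transcription regulators of granulocytes were not of 1 direction. Of the 19 past the filter 13 were above 0, with a median of 0.19. After the correction for level 11 were, with a median of 0.05. Spi1, which encodes PU.1, was bright and at 0.13 (10.68 and 10.81), close to the median of genes of like level (0.13), and Myb was at 0.30. Cebpa was at 0.28, Cebpd at 0.34, Cebpb at -0.19, Runx1 at 0.22, Jun at 0.19, Egr1 at 0.05 and Irf8 at -0.06, all above the control level. Cebpe, the C/EBP factor of specific granule genes, was near background on both arrays (4.05 and 4.79). Gfi1, a repressor required for neutrophil maturation, was under the control level in wild type and at least 1.39-fold higher (4.64 and 5.28). Rara (-0.49), Fosl2 (-0.44) and Klf4 (-0.30) were below 0. Per2 (1.27), Klf5 (0.26), Bcl6 (0.25), Cebpg (0.06) and Ets2 (-0.14) were near background.

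Markers of other blood cells differed between the same arrays, and their part in the granule gene differences was not tested. Medians are over the genes past the filter, while linear sums take in every measured gene of a list. The sums thus cover 9 eosinophil, 10 mast cell and basophil, 7 erythroid and 9 B cell markers. Eosinophil markers were at least 2-fold lower as measured in 6 of the 8 past the filter, with a median of -1.52 and a linear sum of 2030 in wild type and 715 on the other array. They include Ear6 (-1.78), Prg2 (-1.48) and Epx (-1.56). Alox15 was at least 2.94-fold lower, while Prg3 (-1.56) and Rnase2a (-1.14) had limits of 1.01-fold each, Il5ra (-0.73) and Siglecf (0.14) were near background and Ccr3, under the control level in wild type, was at 0.96. Macrophage markers were above 0 in all 12 cases, with a median of 0.74 and sums of 455 and 742, among them Vcam1 (0.97), C1qc (0.86), Mrc1 (0.74), C1qa (0.69) and C1qb (0.58). Cd5l (1.59), Spic (1.08), Adgre1 (0.84) and Mertk (0.75) were near background. Monocyte markers had a median of -0.11 (-0.24 after the correction for level), with none of 10 past 1.5-fold, sums of 1085 and 1141, and a range from Cx3cr1 (-0.35, near background) and Klf4 (-0.30) to Ms4a6c (0.25) and Ccl9 (0.27).

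Mast cell and basophil markers had a median of 0.05 over 7, which turned to -0.11 after the correction for level, sums of 766 and 785, and Hdc at 0.43, Gata2 at 0.25, Mcpt8 at -0.17 and Tpsb2, near background, at -0.55. Erythroid markers had a median of -0.21 over 6 and sums of 373 and 407, with Car1 at 0.42, Tfrc at -0.23, Ermap, near background, at -0.42 and Slc4a1 at -0.44, the last under the control level on the second array. Epor, below the filter, was at 0.59. T cell markers were at least 1.5-fold lower as measured in 8 of 9 (median -1.76, sums 638 and 193). Of them Cd3e was 4.30-fold lower, and lower limits for genes under the control level on the array labelled knockout were 3.57-fold for both Cd8b1 and Cd8a, 2.02-fold for Cd3g and 1.39-fold for Cd3d. Cd5, likewise under it there, was at -0.64. Themis (-1.76), the median gene, and Cd2 (-1.15) were near background. Cd3e and Cd4 were the markers above the control level on both arrays, and Cd4 was at 0.09 (-0.03 after the correction for level). B cell markers were below 0 in all 8 (median -0.99, sums 1364 and 748), with Igll1 at -1.16, Vpreb3 at -1.02, Ebf1 at -0.95 and Cd79a at -0.76, and with limits of 1.79-fold for Pax5 and 1.51-fold for Vpreb1. Of the ILC progenitor markers, 6 of 9 were below 0 (median -0.35, sums 1721 and 1639). Il7r, which encodes CD127, was at -0.70, Nfil3 at -0.93, Ets1 at -0.67, Kit at 0.65 and Id2 at 1.23, while Gata3, Tcf7 and Ly6a (Sca-1) were not analysed here.

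**Figure D4:**
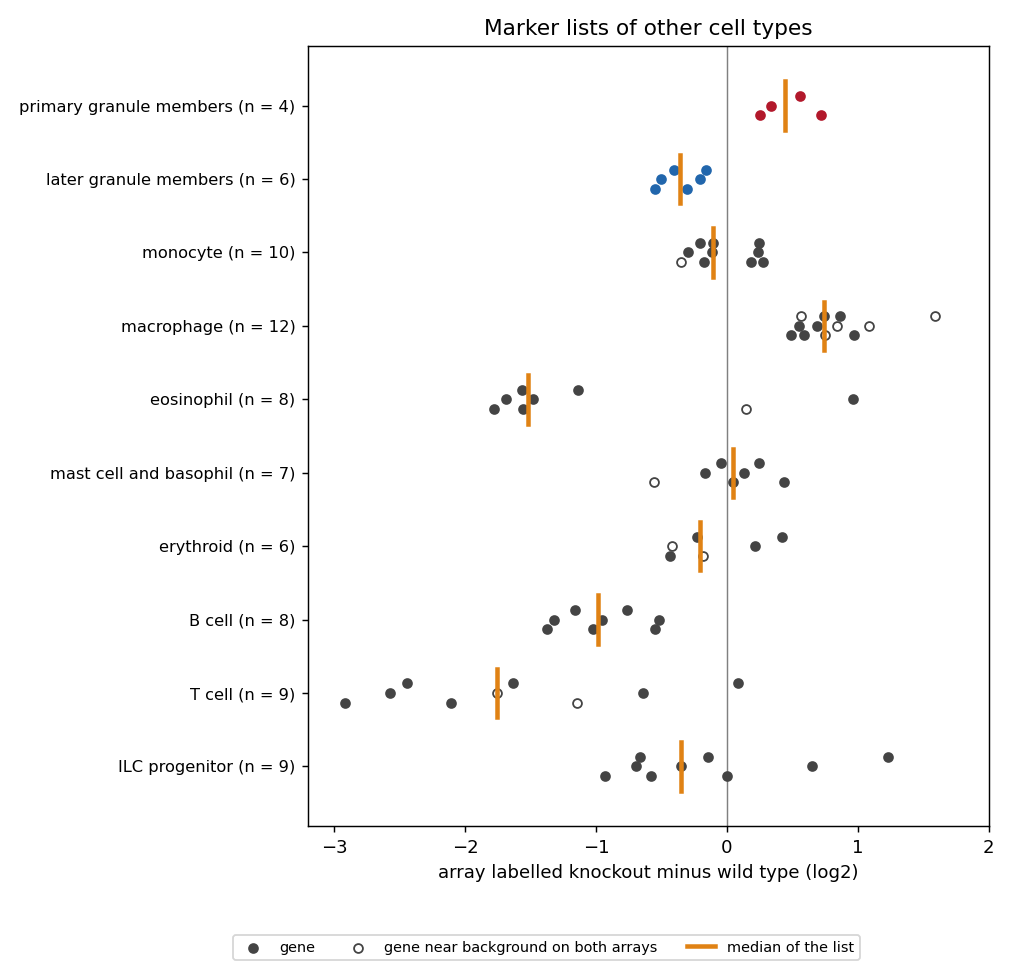
Difference between the arrays (log2, x axis) for each gene past the filter in the marker lists of other blood cells, beside the granule members, with the median of each list as an orange bar and open circles for genes near background. The members' shifts of at most 0.72 are small beside those of the eosinophil and T cell markers, whose medians are -1.52 and -1.76.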

How the data were processed

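Each of the 2 arrays has 1 column of deposited log2 expression values. The tools listed per the submitters' processing notes are Affymetrix Power Tools and RMA. RMA is a method that normally makes the arrays' distributions alike, which hides any difference in the RNA content of a cell. The deposited values still kept an offset over the genes past the filter, with a median of 4.85 in wild type and 4.94 on the array labelled knockout. Tool versions and genome build were not found in the sources used here. Gene names rest on a platform annotation that is not the one of the Mouse Gene 2.0 array in the design text, but whose probe set names match. Any probe set with several gene symbols was left out, and such probe sets were not counted. Of 29129 probe sets 19572 have 1 gene symbol, giving 19505 genes, and a gene is its probe set of highest mean. All their gene identifiers matched the reference table.

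Values were used as deposited. Genes entered at a mean of at least the median of all probe sets (2.88). The array number limits the precision. A gene under the control level on 1 array has its fold stated as a lower bound, computed with that level; its log2 difference is as measured. Members and lists were chosen with earlier results of these data known. Named are all members, Yeats4, Lmo4, the regulators and, in each other list, the 4 largest differences past the filter and any gene that differed 1.5-fold; other genes were named after their values were seen, and so were the neighbours. Of 220 listed genes 199 were measured, and the others, such as Slpi, Olfm4 and Ly6g, were not analysed here. Motifs were searched in the RefSeq promoter table (GRCm38.p6). Alternatives were centring of each array on its median over genes past the filter, a loess correction (span 0.3), quantile normalization, the mean of probe sets, values raised to the control level, other level filters, other later classes, the mean in place of the median, and spreads over 200 or 1000 genes. Python 3.11.15, numpy 2.4.6, pandas 2.3.3 and statsmodels 0.14.6 were used, and the functions were tested on simulated data.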

Additional observations from a re-analysis of the deposited data

How the results depend on the processing

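Under the alternatives run, the primary genes kept a median above 0 (0.35 to 0.47), the later genes one below 0 (-0.50 to -0.31) and the gap ranged from 0.75 to 0.91. Each of the 10 genes kept its direction under centring, loess correction and quantile normalization, with Mpo lowest at 0.16 after the loess correction. Ctsg stayed past 1.5-fold in each of these scalings (lowest 0.59). The mean of probe sets and values raised to the control level could not change any member. Each of the 10 has 1 probe set and lay above that level on both arrays. Centring shifts all genes alike, so it could not change the gap (0.80). After the loess correction Ltf (-0.70) and Mmp9 (-0.64) were also past 1.5-fold, as they were after centring and quantile normalization. The genes past 1.5-fold downwards numbered 669, 820 and 665 under these scalings, against 561 as deposited, and upwards 762, 679 and 761, against 997. With the spread taken over genes at a mean of 10 or more, an alternative chosen after seeing the data, it was 0.10 for Mpo, Elane, Prtn3, Ngp and Lcn2. The counts over all genes depended also on low values. With values raised to the control level, 387 genes passed 1.5-fold upwards and 89 downwards, and 19 and 23 passed 2-fold. With a filter at the 75th percentile these were 431, 104, 35 and 25. With no filter 1357 genes passed 1.5-fold upwards and 1155 downwards, and 227 and 137 passed 2-fold. With 1 array per genotype, no array could be left out and no replicate error exists. No paired analysis was possible because each genotype has 1 array. Mmp8 and Mmp9 lay closest of the members to the control level, yet above it on both arrays, so raising values to it could not change their differences.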
